A study of Mus musculus with 8 samples.

Results

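The cell cycle and proliferation genes examined here are 40 genes that act in DNA replication, in mitosis or at the steps that lead into them. They were taken by symbol from GENCODE M21 out of the 46517 Ensembl genes in a table of liver read counts, and all 40 were found. The rule used the symbols and no measured value, but the 40 genes were chosen with earlier results of these data known. The 40 genes lie on 16 chromosomes. Of the 40 genes, 33 passed the filter on low counts and were tested. The other 7 genes (Ccnb1, Cdc6, Foxm1, Kif20a, Cenpe, Cenpf and Bub1) had too few counts and are given by their counts.

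Whole liver RNA was sequenced from 4 MøFoxO1-KO mice and 4 WT littermates, all male and on a C57BL/6 background. MøFoxO1-KO mice carried FoxO1 loxP/loxP alleles and Lyz2-Cre, in which the promoter of the lysozyme 2 gene drives Cre in myeloid cells throughout the body. WT littermates carried the same loxP/loxP alleles without Cre, so both groups had floxed FoxO1. Mice in both groups began a NASH diet at 6 weeks of age, stayed on it for 25 weeks and were killed at 31 weeks of age after a 16 hour fast. Poly(A) RNA from 10 mg pieces of liver gave between 15253218 and 18025481 counted reads per mouse. MøFoxO1-KO replicates are numbered 26 to 29 and WT replicates 22 to 25, and per-mouse values below follow that order within each group. Normalized counts are counts scaled by edgeR's TMM factors to a common library size, the mean over the 8 mice. Foxo1 itself had 422, 467, 328 and 461 counts in WT livers and 448, 253, 438 and 259 in MøFoxO1-KO livers, a log2 fold change of -0.17 (quasi-likelihood test of edgeR, Benjamini-Hochberg adjusted P = 0.686). Hepatocyte markers (Alb, Apoa1, Apob, Ttr, Serpina1a and Cps1) took 8.39% of all counts. The deletion is myeloid, and counts of whole liver RNA do not show which cells the Foxo1 reads came from.

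Most hepatocytes of an adult liver rest outside the cell cycle and can re-enter it after injury or loss of tissue. Entry is driven by D-type and E-type cyclins with their kinases, which free E2F transcription factors to switch on the genes of DNA replication. The genes of mitosis follow, with their own activators Foxm1 and B-Myb, and the anaphase-promoting complex (APC/C) then ends mitosis by destroying cyclins. In steatohepatitis, hepatocytes, macrophages, lymphocytes, stellate cells and endothelial cells can all enter the cycle. In RNA of whole liver, fewer dividing cells and less RNA of a gene per cell cannot be told apart, nor can the dividing cell type be named.

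Promoter stretches are printed for 5 of the genes on which the per-mouse values below turn, to show the short elements that genes of mitosis and of replication are known to share. Windows from 250 bases before to 50 bases after the start were taken from RefSeq (GRCm38.p6), which held 32 of the 40 genes and 33 windows. Ccne2, Ccnd1, Tpx2, Aurkb, Ccna2, Kif20a, Mcm4 and Foxm1 had no entry. Capitals mark matches, on either strand, to the cell cycle homology region (CHR, TTTGAA or TTCGAA), the CCAAT box (CCAAT) and the E2F site (TTTCCCGC, TTTGGCGC or TTTCGCGC). All 5 genes lie on the minus strand and read 5′ to 3′, up to the base before the start except for Cdc20, where the 9 bases nearest the start lie in an annotated exon and are left out.
Mki67, chr7:135716380-135716629: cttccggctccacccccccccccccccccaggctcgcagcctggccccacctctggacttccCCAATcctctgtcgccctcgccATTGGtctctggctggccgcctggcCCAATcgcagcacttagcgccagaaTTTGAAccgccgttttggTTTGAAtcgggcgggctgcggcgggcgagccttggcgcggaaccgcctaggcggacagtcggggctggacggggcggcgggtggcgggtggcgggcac
Top2a, chr11:99024190-99024439: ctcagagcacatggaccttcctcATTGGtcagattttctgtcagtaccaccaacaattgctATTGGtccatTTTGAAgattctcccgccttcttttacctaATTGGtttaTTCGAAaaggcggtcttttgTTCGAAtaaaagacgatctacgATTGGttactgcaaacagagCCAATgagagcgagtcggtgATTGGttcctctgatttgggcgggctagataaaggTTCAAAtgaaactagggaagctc
Ccnb2, chr9:70421555-70421804: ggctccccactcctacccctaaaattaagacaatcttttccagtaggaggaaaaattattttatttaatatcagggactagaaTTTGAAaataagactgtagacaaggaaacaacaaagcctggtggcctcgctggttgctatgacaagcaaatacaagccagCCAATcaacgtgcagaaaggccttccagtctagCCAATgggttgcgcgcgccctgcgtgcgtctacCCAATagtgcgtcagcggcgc
Cdc20, chr4:118437353-118437593: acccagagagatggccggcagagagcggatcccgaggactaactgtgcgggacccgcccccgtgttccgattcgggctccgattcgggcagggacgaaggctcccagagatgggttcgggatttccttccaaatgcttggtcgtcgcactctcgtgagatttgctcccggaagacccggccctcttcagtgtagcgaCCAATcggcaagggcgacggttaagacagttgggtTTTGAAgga
Mcm6, chr1:128359706-128359955: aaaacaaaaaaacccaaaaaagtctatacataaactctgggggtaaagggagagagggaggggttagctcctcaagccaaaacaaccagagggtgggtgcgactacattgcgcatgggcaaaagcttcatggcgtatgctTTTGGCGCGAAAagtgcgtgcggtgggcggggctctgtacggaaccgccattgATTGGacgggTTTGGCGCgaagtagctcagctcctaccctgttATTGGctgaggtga

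Mki67, Top2a, Ccnb2 and Cdc20 each held a CHR and a CCAAT box, whereas the Mcm6 window held E2F sites and CCAAT boxes and no CHR. The Top2a window had 4 CHR and 6 CCAAT matches. In Mcm6, 2 of its 3 E2F matches overlapped each other. Over the 14 windows of genes with mitotic roles, 64.3% held a CHR, 78.6% a CCAAT box and 7.14% an E2F site. Over the 13 windows of genes with roles in DNA replication, 23.1% held a CHR, 76.9% a CCAAT box and 38.5% an E2F site. Of all 32851 promoter windows of the same length, 19.2% held a CHR, 37.4% a CCAAT box and 1.84% an E2F site. A match describes the letters only.

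The 40 genes together were a small part of the liver transcriptome and did not separate the groups. They held 0.0151% of all counts, and their summed normalized counts were 2472, 2602, 2408 and 2188 in WT livers and 2511, 2353, 2536 and 2738 in MøFoxO1-KO livers. Per length, 29 of the 40 genes lay under 1 FPKM (normalized counts per kilobase of exon, scaled to library size), 8 lay between 1 and 5 FPKM and 3 at 5 FPKM or more. The range ran from 0.0287 FPKM for Cenpf, a kinetochore protein, to 6.66 FPKM for Pcna, the replication clamp. In 19 genes at least 1 mouse had under 10 counts, and 5 genes had at least 100 counts in every mouse.

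A gene was called when its Benjamini-Hochberg adjusted P in edgeR's quasi-likelihood test was under 0.05 and its log2 fold change was over 1.5 in size. None of the 33 tested genes was called, where 0.188% of all tested genes were. The lowest adjusted P (edgeR, Benjamini-Hochberg) of the 33 was 0.275. DESeq2 and limma-voom also called 0 of the tested cell cycle genes. At an unadjusted P under 0.05, 0 genes were higher and 1 gene, Cdc20, was lower in MøFoxO1-KO livers, beside 8.65% of all tested genes that were higher and 8.06% that were lower. The same counts by DESeq2 were 1 higher and 1 lower. In none of the 33 genes did the groups lie fully apart, whereas all 4 MøFoxO1-KO livers lay above all 4 WT livers in 5.00% of all tested genes and below them in 4.71%. The log2 fold change was positive in 13 and negative in 20 genes, between -1.34 for Cdc20 and 0.60 for Tk1, and it was under 0.5 in size in 28 of the 33. Its median was -0.04, beside -0.01 over all tested genes. That median was 0.138 without WT replicate 23, -0.175 without MøFoxO1-KO replicate 29 and -0.236 without WT replicate 25.

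**Figure D1:**
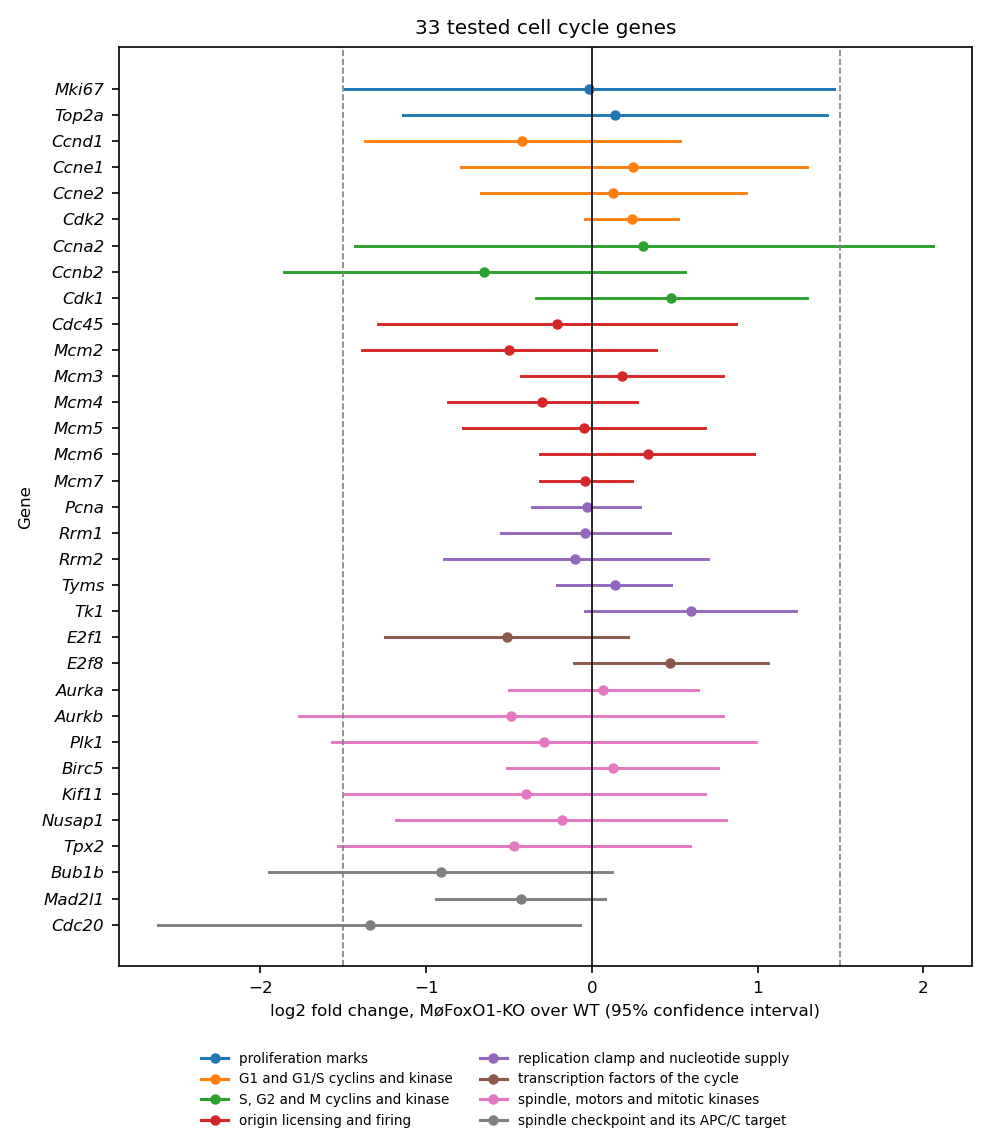
Log2 fold change of MøFoxO1-KO over WT livers (x axis) for the 33 tested cell cycle genes (y axis), colored by role. Points are edgeR estimates, lines their 95% confidence intervals and dashed lines the limit of 1.5. Only the interval of Cdc20, from -2.62 to -0.07, leaves out 0.

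How small a change could have been seen differed widely between genes. The 95% confidence interval of the log2 fold change reached from 0.275 to 1.75 on either side of the estimate, with a median of 0.80. In 14 of the 33 genes the whole interval lay within 1 on the log2 scale in either direction. These included Pcna (-0.36 to 0.29), the helicase subunit Mcm7 (-0.31 to 0.24), Cdk2 (-0.04 to 0.52) and the thymidylate synthase Tyms (-0.21 to 0.48). For Mki67 the interval ran from -1.49 to 1.46 and for Ccna2 from -1.43 to 2.06, so these livers do not limit a change in them to under 2-fold in either direction.

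The spread between mice of the same genotype was wide. The median coefficient of variation of normalized counts was 32.7% over the 33 tested genes in WT livers and 33.9% in MøFoxO1-KO livers, beside 19.6% and 17.2% over all tested genes. Low counts raise this measure. Against edgeR's trend of the biological coefficient of variation over expression level, 13 of the 33 genes (39.4%) lay above the trend, beside 26.8% of all tested genes. The median of that coefficient was 0.333 over the 33 genes, below their median trend value of 0.377. Over all tested genes these medians were 0.211 and 0.231. The coefficient of variation was larger in WT than in MøFoxO1-KO livers for 16 of the 33 genes (48.5%), beside 57.0% of all tested genes.

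WT replicate 23 and MøFoxO1-KO replicate 29 were often the highest mice. WT replicate 23 was the highest of the 8 mice in 16 of the 40 genes and MøFoxO1-KO replicate 29 in 13, together 29 of 40. Over all tested genes the same mice were the highest in 27.2% and 15.6%, and WT replicate 23 was also the lowest in 25.5%, so it stood apart beyond the cell cycle. Over all 83 other cell cycle genes the same mice were the highest in 38.6% and 18.1%. That set includes 28 genes too low in counts to test, so it is not like the set of all tested genes. Counting tested genes only, they were the highest in 39.4% and 30.3% of the 33. In the 55 other tested cell cycle genes they were the highest in 27.3% and 16.4%, near the shares over all tested genes. Among the 40 genes MøFoxO1-KO replicate 26 was the lowest mouse in 10 and WT replicate 25 in 8. Macrophage markers summed to between 1792 and 2796 normalized counts in WT livers, lowest in WT replicate 23, and to 3325, 6895, 2179 and 9088 in MøFoxO1-KO livers, highest in replicate 29. Clec4f and Marco made up much of the MøFoxO1-KO sums. Marco had 736, 2710, 66.4 and 2117 normalized counts there, beside 4.91 to 81.1 in WT livers. Clec4f had 1051, 1767, 1171 and 3184, beside 799 to 1509. At an unadjusted P under 0.05 (edgeR), 4 of the 10 markers had raised means in the knockout group and 0 had lowered ones. The shares over all tested genes were 8.65% and 8.06%. All 10 markers of that list were detected and none was called, and their part in the levels of cell cycle genes was not tested. WT replicate 23 was also the lowest mouse in the summed endothelial markers, with 1532 normalized counts beside 2673 to 3350 in the other WT livers.

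**Figure D2:**
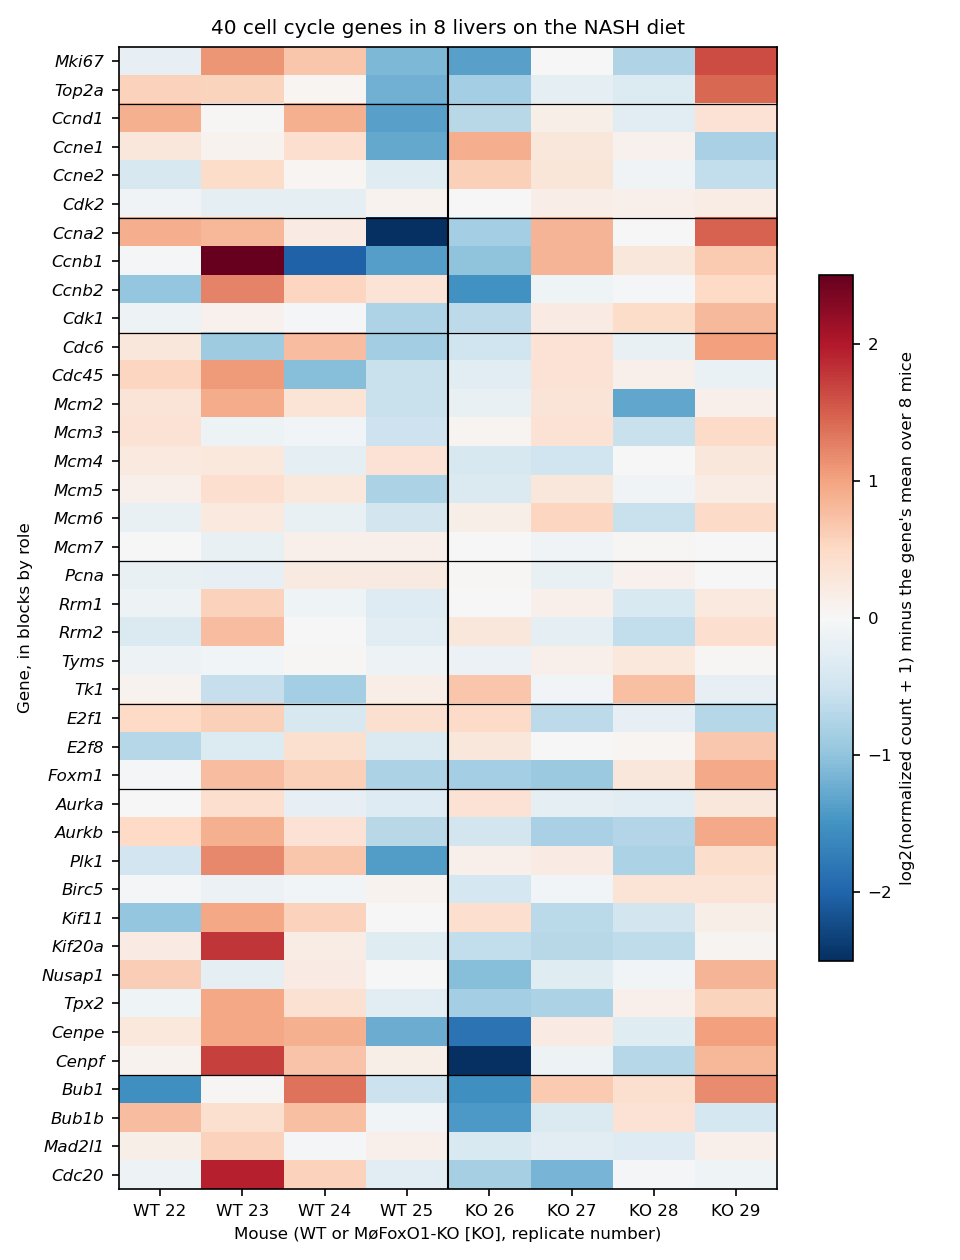
Level of each of the 40 cell cycle genes (rows, in blocks by role) in each of the 8 livers (columns), as log2(normalized count + 1) minus the mean of the gene over the 8 mice. Red is above and blue below that mean, and WT replicate 23 or MøFoxO1-KO replicate 29 holds the highest value in 29 of the 40 rows.

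Mki67 (ENSMUSG00000031004, chromosome 7 of GRCm38 from 135689788 to 135716379) encodes Ki-67, the coat protein of mitotic chromosomes that pathologists stain to count cycling cells. WT livers had 33, 79, 63 and 16 Mki67 counts and MøFoxO1-KO livers 14, 30, 22 and 100. The highest and the lowest liver belonged to the same genotype, MøFoxO1-KO replicates 29 and 26, and the groups overlapped. The mean was 45.6 ± 27.6 normalized counts in WT and 45.5 ± 45.2 in MøFoxO1-KO livers (SD, n = 4, exact permutation test, P = 1.0). The fitted difference was -0.02 on the log2 scale, and it was -0.98 without MøFoxO1-KO replicate 29 and 0.36 without WT replicate 23. Top2a, the topoisomerase that untangles sister chromatids, had 32, 30, 22 and 8 counts in WT and 11, 14, 16 and 49 in MøFoxO1-KO livers. MøFoxO1-KO replicate 29 stood far above the other mice of its group, and the log2 fold change of 0.14 became -0.64 without it.

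Cyclin D1, the product of Ccnd1, partners Cdk4 and Cdk6 and carries mitogen signals into the cycle. Its counts were 295, 155, 297 and 58 in WT livers and 96, 138, 129 and 171 in MøFoxO1-KO livers. WT livers held both the highest values and the lowest. The log2 fold change was -0.42 (95% confidence interval -1.37 to 0.53), and 21.3% of the exon length of Ccnd1 is shared with a gene on the other strand. The E-type cyclins activate Cdk2 at the start of DNA synthesis. Ccne1 had 24, 20, 27 and 7 counts in WT and 37, 19, 21 and 9 in MøFoxO1-KO livers, and Ccne2 17, 30, 24 and 17 against 34, 22, 21 and 12. For both cyclins MøFoxO1-KO replicate 26 was the highest of the 8 livers, with log2 fold changes of 0.25 and 0.13. Cdk2 varied little, at 197 ± 21.4 normalized counts in WT and 233 ± 12.2 in MøFoxO1-KO livers (SD, n = 4, exact permutation test, P = 0.0571), and had a log2 fold change of 0.24 (edgeR, Benjamini-Hochberg adjusted P = 0.369). No exact permutation test of 4 mice against 4 can go below P = 0.0286.

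Cdk1, the kinase that starts mitosis, had 24, 27, 26 and 14 counts in WT and 16, 24, 36 and 39 in MøFoxO1-KO livers, a log2 fold change of 0.48 (95% confidence interval -0.34 to 1.30). Its cyclins varied widely between mice. Ccna2, cyclin A of S phase and G2, was counted 20, 18, 12 and 0 times in WT livers and 5, 15, 10 and 25 times in MøFoxO1-KO livers. Ccnb1, the main mitotic cyclin, was counted 7, 49, 1 and 2 times in WT livers and 3, 11, 9 and 10 times in MøFoxO1-KO livers. WT replicate 23 held most of the Ccnb1 counts of its group, with 14.4 ± 22.6 normalized counts in WT and 8.93 ± 4.45 in MøFoxO1-KO livers (SD, n = 4, exact permutation test, P = 0.971). Ccnb2 had 8, 39, 25 and 20 counts in WT and 5, 12, 16 and 20 in MøFoxO1-KO livers, again highest in WT replicate 23, with a log2 fold change of -0.65 (95% confidence interval -1.86 to 0.56), which was -0.26 without that mouse and -0.36 without MøFoxO1-KO replicate 26.

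**Figure D3:**
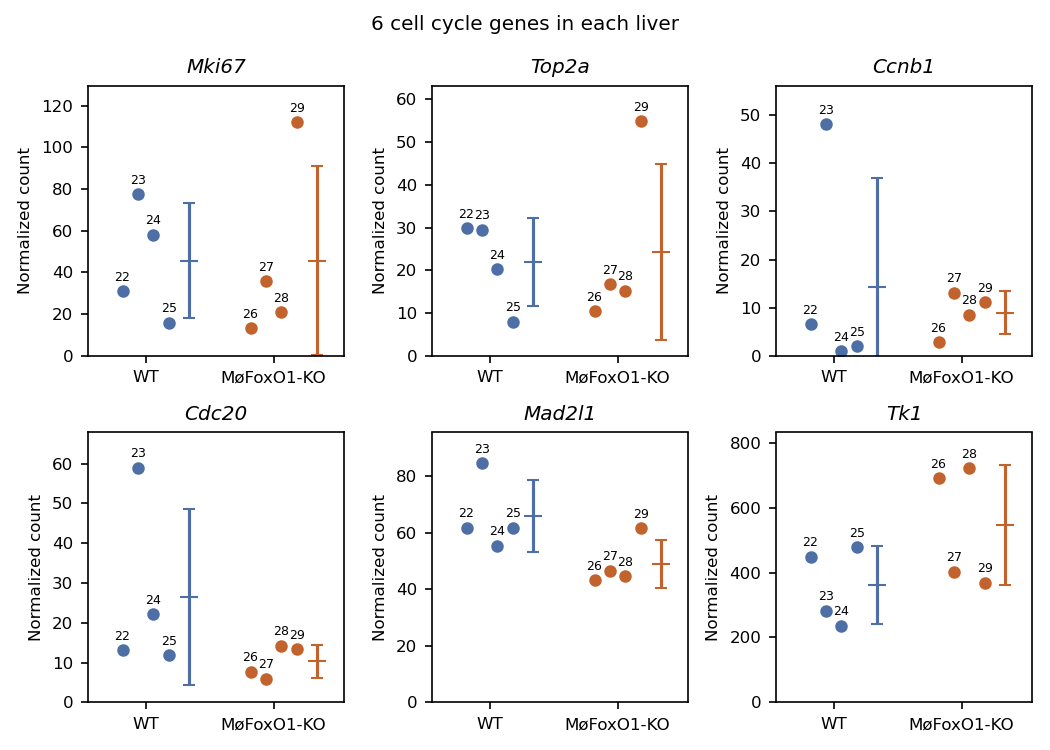
Normalized counts (y axis, from 0) of 6 cell cycle genes in each WT and MøFoxO1-KO liver, labeled by replicate number, with the mean and SD of each group (n = 4) at the right. The groups overlap in all 6 genes, and the lower bar of Ccnb1 in WT livers runs past the axis.

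Genes that prepare and fire replication origins showed no called difference between the groups. Cdc6 loads the Mcm2 to Mcm7 helicase on DNA and Cdc45 joins it when an origin fires. Log2 fold changes of the 7 tested genes of this role lay between -0.50 for Mcm2 and 0.34 for Mcm6, with a median of -0.05, 2 positive and 5 negative. Mcm2 had 61, 89, 63 and 31 counts in WT livers and 42, 48, 19 and 45 in MøFoxO1-KO livers. Mcm6 had 50, 65, 51 and 39 against 62, 66, 38 and 67. For these subunits of the same ring the signs were opposite, and neither interval left out 0 (-1.39 to 0.39 for Mcm2 and -0.31 to 0.98 for Mcm6). Cdc6 had between 2 and 9 counts per mouse in either group. Mcm7 was the steadiest of the role, at 203 ± 19.9 and 198 ± 7.16 normalized counts in WT and MøFoxO1-KO livers (SD, n = 4).

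Among the replication clamp and the enzymes that supply nucleotides, thymidine kinase Tk1 (ENSMUSG00000025574, chromosome 11 of GRCm38 from 117815526 to 117826092), which salvages thymidine, had the largest positive log2 fold change of the 33 genes. WT livers had 480, 288, 256 and 481 Tk1 counts and MøFoxO1-KO livers 720, 338, 760 and 330. MøFoxO1-KO replicates 26 and 28 lay above every WT liver, while replicates 27 and 29 lay within the WT range. The mean was 362 ± 120 normalized counts in WT and 546 ± 185 in MøFoxO1-KO livers (SD, n = 4, exact permutation test, P = 0.171). On the log2 scale the difference of 0.60 had a 95% confidence interval from -0.04 to 1.23 (edgeR, unadjusted P = 0.0634, Benjamini-Hochberg adjusted P = 0.334), and its unadjusted P was 0.0436 by DESeq2. Pcna had 244, 228, 328 and 307 counts in WT and 279, 191, 297 and 232 in MøFoxO1-KO livers, with a log2 fold change of -0.03. Rrm2, the regulated subunit of ribonucleotide reductase, had 28, 60, 37 and 28 against 43, 24, 23 and 41 counts and a log2 fold change of -0.10 (95% confidence interval -0.89 to 0.70).

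Of the 3 transcription factors in the list, 2 were tested and differed in sign. E2f1, an activator of replication genes, had 87, 88, 47 and 76 counts in WT livers and 84, 30, 52 and 31 in MøFoxO1-KO livers (log2 fold change -0.51, 95% confidence interval -1.25 to 0.22). E2f8, a repressor of the same genes that helps hepatocytes become polyploid, had 72, 88, 159 and 86 against 140, 94, 120 and 158 counts (log2 fold change 0.47, 95% confidence interval -0.11 to 1.06). The groups overlapped for both. Foxm1, an activator of mitotic genes, had 8, 14, 13 and 4 counts in WT and 4, 3, 10 and 14 in MøFoxO1-KO livers, and was not tested.

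The 10 genes of the spindle, its motors and the mitotic kinases included 3 that were not tested. In the other 7 the log2 fold change lay between -0.49 for Aurkb and 0.13 for Birc5, and was negative in 5. Aurka, a kinase of the spindle poles, was the best covered, with 62, 80, 55 and 47 counts in WT and 79, 42, 51 and 64 in MøFoxO1-KO livers (log2 fold change 0.07, 95% confidence interval -0.50 to 0.64). Plk1, a kinase needed from mitotic entry to cytokinesis, had 9, 30, 22 and 4 counts in WT and 14, 12, 7 and 15 in MøFoxO1-KO livers. A log2 fold change of -0.29 became 0.21 without WT replicate 23. Birc5 (survivin), which works with Aurkb at the centromere, had 26, 23, 26 and 27 counts against 19, 20, 34 and 29, and the WT livers were close together at 24.4 ± 1.78 normalized counts (SD, n = 4). Kif20a, a motor of cytokinesis, was counted 8, 25, 8 and 5 times in WT and 4, 3, 4 and 6 times in MøFoxO1-KO livers, and 33.2% of its exon length is shared with Cdc23 on the other strand. Aurkb had 11, 14, 10 and 4 counts in WT livers and 5, 3, 4 and 13 in MøFoxO1-KO livers, where replicate 29 stood above the rest.

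The 3 tested genes of the spindle checkpoint had negative log2 fold changes and none was called, while 6861 of all 13278 tested genes also had a negative one. Mad2l1 and Bub1b (BubR1) bind Cdc20 until every chromosome is attached, and freed Cdc20 then activates the APC/C. The gene of Cdc20 (ENSMUSG00000006398) lies on chromosome 4 of GRCm38 from 118432901 to 118437352. Its counts were 14, 60, 24 and 12 in WT livers and 8, 5, 15 and 12 in MøFoxO1-KO livers. WT replicate 23 lay far above the rest, and the other 3 WT livers overlapped with the MøFoxO1-KO livers. The means were 26.5 ± 22.1 and 10.3 ± 4.12 normalized counts (SD, n = 4, exact permutation test, P = 0.171), with a log2 fold change of -1.34 and a 95% confidence interval from -2.62 to -0.07 (edgeR, unadjusted P = 0.0407, Benjamini-Hochberg adjusted P = 0.275). The log2 fold change fell in size to -0.60 without WT replicate 23 (edgeR, unadjusted P = 0.211), and limma-voom gave an unadjusted P of 0.0980.

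Mad2l1 had 66, 86, 60 and 62 counts in WT livers and 45, 39, 47 and 55 in MøFoxO1-KO livers. After normalization the highest MøFoxO1-KO liver, replicate 29, lay within the WT range (exact permutation test, P = 0.0571, n = 4), and the log2 fold change was -0.43 (edgeR, unadjusted P = 0.0921, Benjamini-Hochberg adjusted P = 0.384). Bub1b had 18, 13, 18 and 9 counts against 3, 6, 13 and 6, with a log2 fold change of -0.91 (95% confidence interval -1.95 to 0.12). Bub1, the kinase that recruits these proteins, was not tested, at 2.35 ± 2.85 normalized counts in WT and 3.0 ± 2.32 in MøFoxO1-KO livers (SD, n = 4), and had at most 7 counts in any mouse and 0 in WT replicate 22 and in MøFoxO1-KO replicate 26. Summed over the 4 checkpoint genes, normalized counts were 91.7, 158, 101 and 83.6 in WT and 53.6, 63.2, 74.0 and 87.2 in MøFoxO1-KO livers, so that MøFoxO1-KO replicate 29 lay above WT replicate 25.

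The 18 genes of mitotic roles summed to 308, 550, 343 and 250 normalized counts in WT livers and to 227, 270, 279 and 416 in MøFoxO1-KO livers. The 13 genes of DNA replication summed to 1432, 1378, 1281 and 1442 in WT livers and to 1666, 1425, 1655 and 1472 in MøFoxO1-KO livers. Mitotic sums were highest in WT replicate 23, whereas replication sums were highest in MøFoxO1-KO replicates 26 and 28, the mice with the most Tk1. Both sums overlapped between the groups. Tk1 alone gave 690 and 721 of the replication counts in MøFoxO1-KO replicates 26 and 28, beside 236 to 478 in WT livers. The 8 origin genes, which do not include Tk1, summed to 433 to 531 in WT and 406 to 545 in MøFoxO1-KO livers. That sum was lowest in MøFoxO1-KO replicate 28 and highest in replicate 29.

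**Figure D4:**
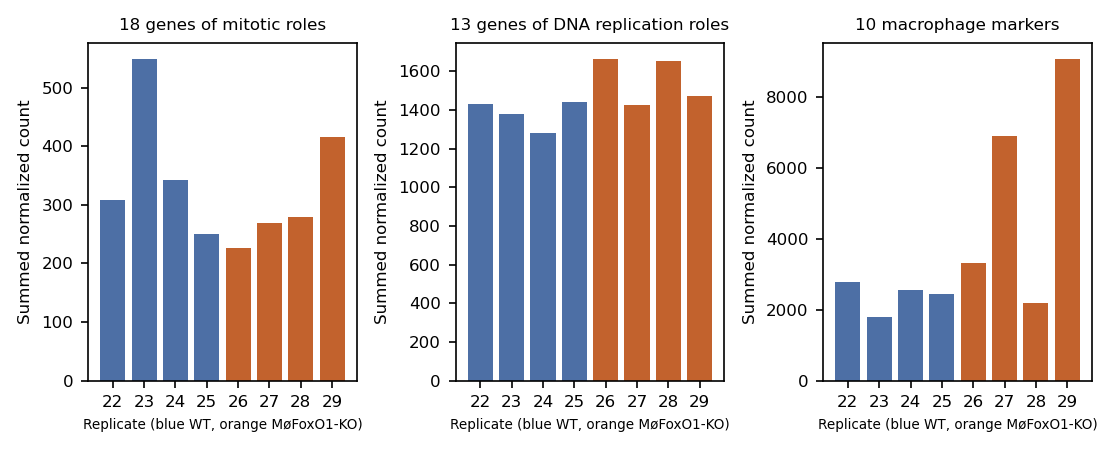
Summed normalized counts (y axes, from 0) in each of the 8 livers for 18 genes of mitotic roles, 13 genes of DNA replication roles and 10 macrophage markers. Mitotic genes are highest in WT replicate 23 (550), whereas macrophage markers are highest in MøFoxO1-KO replicate 29 (9088).

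Other genes of the cell cycle machinery were looked up in the same fit. Of 83 further genes, 55 were tested and none was called by edgeR or DESeq2. At an unadjusted P under 0.05 (edgeR) 4 were higher and 4 lower, together 14.5% beside 16.7% of all tested genes. The higher ones were Mcm10, Kif23, Cks1b and E2f2, and the lower ones Ccnf, E2f3, Cdca3 and Cdk6. Mcm10, which helps fire origins, had 1453, 914, 1354 and 1092 counts in WT and 1928, 1572, 1861 and 1382 in MøFoxO1-KO livers. After normalization all MøFoxO1-KO livers lay above all WT livers, with a log2 fold change of 0.61 (95% confidence interval 0.29 to 0.94, edgeR, Benjamini-Hochberg adjusted P = 0.112). E2f3, an activator of the same family as E2f1, had 153, 251, 173 and 153 against 136, 91, 94 and 82 counts, with all MøFoxO1-KO livers below all WT livers and a log2 fold change of -0.74 (edgeR, Benjamini-Hochberg adjusted P = 0.157). Kif23, a motor of cytokinesis, had 6, 8, 10 and 4 counts in WT and 5, 19, 16 and 35 in MøFoxO1-KO livers (edgeR, log2 fold change 1.58, Benjamini-Hochberg adjusted P = 0.232). Ccnf had 110, 66, 143 and 234 counts against 61, 54, 63 and 59 (edgeR, log2 fold change -1.10, Benjamini-Hochberg adjusted P = 0.177), and the value was -0.69 without WT replicate 25.

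Brakes on the cycle were 20 genes, of which 19 were tested. None was called by edgeR, and DESeq2 called Cdkn2a. At an unadjusted P under 0.05 (edgeR) 1 was higher and 2 were lower, together 15.8% beside 16.7% of all tested genes. Cdkn2a, whose reads may come from the kinase inhibitor INK4a or from ARF, had 4, 1, 9 and 5 counts in WT and 18, 20, 16 and 32 in MøFoxO1-KO livers. All MøFoxO1-KO livers lay above all WT livers, at 23 ± 9.29 against 4.50 ± 3.03 normalized counts (SD, n = 4, exact permutation test, P = 0.0286), a log2 fold change of 2.31 (95% confidence interval 1.12 to 3.50, edgeR, Benjamini-Hochberg adjusted P = 0.110). Cdkn2c, another inhibitor of Cdk4 and Cdk6, ran the other way, with 153, 155, 194 and 158 counts against 58, 54, 86 and 105 and a log2 fold change of -0.99 (edgeR, Benjamini-Hochberg adjusted P = 0.113). The groups did not overlap for Cdkn2c, nor for E2f6, a repressor of the E2F family, which had a log2 fold change of -0.45. Cdkn1b and Ccng2, brakes that FoxO factors are known to activate in many cells, had log2 fold changes of 0.13 (95% confidence interval -0.11 to 0.38) and -0.41 (-0.89 to 0.07). Cdkn1a, a brake induced by p53, was highest in WT replicate 23 with 719 counts, beside 177 to 379 in the other WT livers and 91 to 432 in MøFoxO1-KO livers. The retinoblastoma gene Rb1 had a log2 fold change of -0.16 (95% confidence interval -0.56 to 0.25).

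Mitogens, their receptors and immediate early genes, which act before the cycle starts, were 21 genes, of which 18 were tested. None was called by edgeR, and DESeq2 called Egfr and Atf3. At an unadjusted P under 0.05 (edgeR) 1 was higher and 6 were lower, together 38.9% of those tested beside 16.7% of all tested genes. Egfr, the receptor of epidermal growth factor, had 417, 599, 1374 and 854 counts in WT and 2866, 2339, 1319 and 1838 in MøFoxO1-KO livers. WT replicate 24 lay above MøFoxO1-KO replicate 28, and the log2 fold change was 1.51 (95% confidence interval 0.71 to 2.31, edgeR, Benjamini-Hochberg adjusted P = 0.115). Jun, an immediate early factor that drives Ccnd1, had 549, 766, 520 and 414 counts against 180, 235, 338 and 206, all MøFoxO1-KO livers below all WT livers, with a log2 fold change of -1.10 (95% confidence interval -1.61 to -0.60, edgeR, Benjamini-Hochberg adjusted P = 0.0953). Lower means were also seen for the early response genes Atf3 (-1.90), Egr1 (-1.34) and Myc (-0.93), for the ligand Tgfa (-0.43) and for the coactivator Yap1 (-0.37), all as log2 fold changes, and Yap1 alone of these 5 had groups that did not overlap. Without WT replicate 24 the value was -0.61 for Egr1 and -0.56 for Myc, and without WT replicate 22 it was -1.18 for Atf3. Hgf, the growth factor that stellate cells send to hepatocytes, and its receptor Met had log2 fold changes of 0.15 and 0.12, with 95% confidence intervals from -0.38 to 0.69 and from -0.21 to 0.45.

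**Figure D5:**
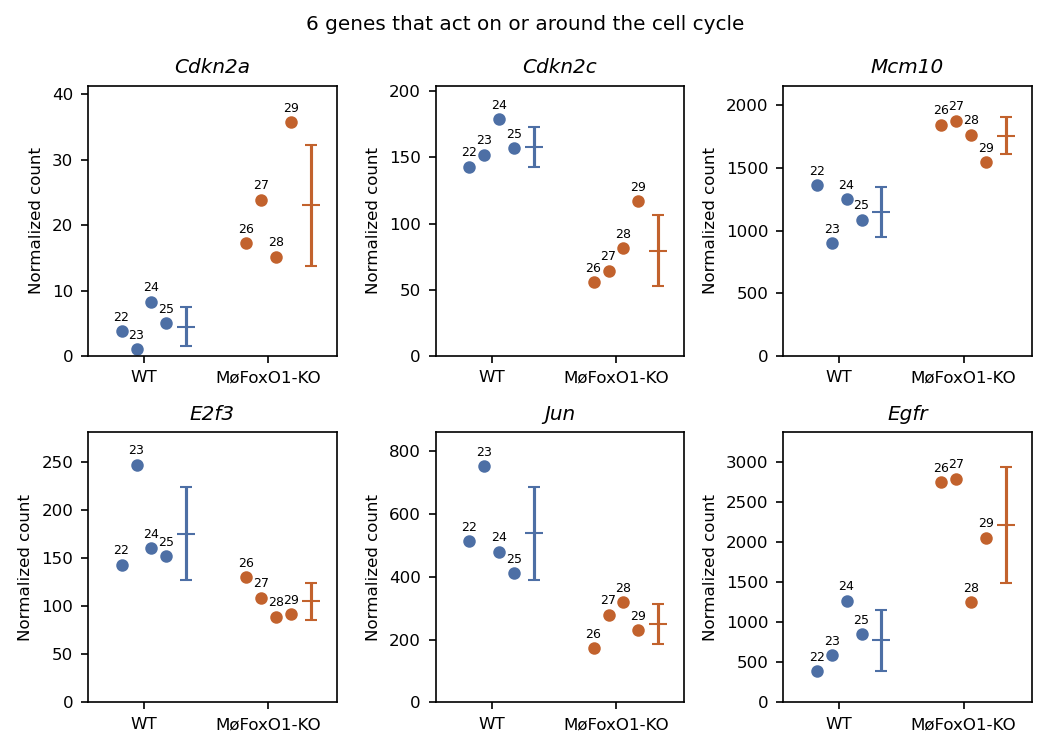
Normalized counts (y axis, from 0) of the brakes Cdkn2a and Cdkn2c, of Mcm10 and E2f3, and of the mitogen pathway genes Jun and Egfr in each liver, labeled by replicate number, with the mean and SD of each group (n = 4) at the right. The groups lie apart in each panel but Egfr, where WT replicate 24 overlaps with MøFoxO1-KO replicate 28.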

How the data were processed

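Liver RNA-Seq of 4 MøFoxO1-KO mice and 4 WT littermates was used. The authors deposited 1 table of raw read counts per Ensembl gene, with exon coordinates, and replicates were not pooled. STAR, featureCounts and mm10 are named in the submitters' processing notes, and their versions, the strand option and the handling of multi-mapped reads are not given in the sources used here. The library kit does not mark strand, so reads of overlapping genes on opposite strands cannot be told apart. Of the 40 genes, 12 share exon sequence with another gene, 7 of them over more than 5% of their length (Ccnd1, Ccne2, Ccna2, Cdc45, Mcm7, E2f8 and Kif20a), and Ccnb1, Ccnb2 and Pcna have pseudogenes of their name in the table, so their counts are uncertain to that extent.

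Symbols came from GENCODE M21 (46005 of 46517 genes). Genes were filtered with filterByExpr (minimum count 10, minimum total 15), which left 13278, normalized by TMM and tested with edgeR 4.0.16 (quasi-likelihood F test, R 4.3.3), without covariates. P values were adjusted by Benjamini-Hochberg over all tested genes, and calls used the study's limits, 0.05 for adjusted P and 1.5 for the size of the log2 fold change. The common biological coefficient of variation was 0.256. Normalized counts of single genes were set against each other in two-sided exact permutation tests (scipy 1.17.1). Total counts of 15253218 to 18025481 limit the precision of genes with few counts.

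The 40 genes, the other lists and the tests were chosen with earlier results of these data known, so lists are described by counts and medians. Genes were named by a rule: examples of each role, genes at an unadjusted P under 0.05 or with groups that did not overlap, the extremes of each role, untested genes by their counts, and Cdkn1a, Cdkn1b, Rb1, Ccng2, Myc, Hgf and Met. Of the markers of 10 cell types listed for comparison, the summed macrophage and endothelial markers are printed, and hepatocyte, lipid-associated macrophage, neutrophil, T and NK cell, B and plasma cell, stellate and myofibroblast, cholangiocyte and erythroid markers are given in the closing section. Cyr61 and Ctgf are older names of Ccn1 and Ccn2. Alternatives were DESeq2 1.42.0, limma-voom 3.58.1, the robust fit of edgeR, other scalings, other filters, no limit on the fold change and leaving out each of 8 mice. Leaving out WT replicate 23 and MøFoxO1-KO replicate 29 together was added after seeing the data. In simulated counts of 13065 genes, 200 of them changed by 3 on the log2 scale, edgeR recovered 194 with 7 false calls, DESeq2 194 with 12 and limma-voom 189 with 7. That change is larger than any estimated for the 33 tested cell cycle genes (-1.34 to 0.60). The simulation therefore does not show how often changes of their size would be found. Tables were handled in Python 3.11.15 with pandas 2.3.3 and numpy 2.4.6, and plotted with matplotlib 3.10.9.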

Additional observations from a re-analysis of the deposited data

Results flagged for a closer look

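A mouse stood far from the others of its group in 5 of 80 tests, each on the 4 normalized counts of a gene in a genotype. Chance flags about 1 in 20 groups, or 4 of 80. In WT replicate 23 these were Ccnb1, at 48.1 normalized counts beside 0.922 to 6.55 in the other WT livers, and Kif20a, at 24.6 beside 4.97 to 7.49. In MøFoxO1-KO replicate 29 they were Top2a, at 54.8 beside 10.5 to 16.7 in the other livers of its group, Aurkb, at 14.5 beside 3.58 to 4.79, and Kif20a, at 6.71 beside 3.58 to 3.83. All 5 were the highest value of their group, and in Kif20a both genotypes had such a mouse. Kif20a had only 4, 3, 4 and 6 counts in MøFoxO1-KO livers and was not tested, so its flag in that group rests on few reads.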

How the results depend on the processing

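No cell cycle gene of the 40 was called under any alternative, and the lowest adjusted P of a tested one was 0.209 (edgeR, Benjamini-Hochberg adjusted, E2f8 without WT replicate 24). Of 33 tested genes, 19 kept their direction throughout, Cdc20, Bub1b, Mad2l1 and Tk1 among them, and 14 changed it in at least 1 fit, each of them with a log2 fold change of at most 0.31 in size over all 8 mice. The cause was not tested.

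Over all genes, 144 were called by DESeq2, 13 by limma-voom, 120 without a filter, 39 without the limit on the fold change and 3 to 82 with 1 mouse left out, lowest without WT replicate 25 and highest without MøFoxO1-KO replicate 28. At an unadjusted P under 0.05, 1 of the 40 genes was higher by DESeq2 and without a filter and 0 to 2 with 1 mouse left out, and the count of lower ones was 0 by limma-voom, with at least 10 counts in every mouse and without WT replicate 23 and MøFoxO1-KO replicate 29 together, and 0 to 2 with 1 mouse left out. The median log2 fold change, over those of the 40 genes that passed the filter in each fit, ran from -0.236 to 0.138 with 1 mouse left out. It was 0.005 without WT replicate 23 and MøFoxO1-KO replicate 29. Among other cell cycle genes the count was 5 by limma-voom and 4 to 9 with 1 mouse left out, and among brakes 2 to 5. Adjusted P was under 0.05 by DESeq2 for Mcm10, Cdkn2a, Cdkn2c, Egfr, Jun and Atf3, and without a filter for Egfr and Jun.

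Log2 fold changes that changed sign were, for Mki67, 0.01 by DESeq2 and 0.03 with upper quartile scaling, and by limma-voom -0.03 for Top2a and 0.02 for Cdc45. Without WT replicate 23 and MøFoxO1-KO replicate 29 they were -0.46 for Top2a, 0.30 for Cdc45, 0.03 for Mcm5, 0.10 for Rrm1, 0.06 for Rrm2, 0.05 for Plk1, -0.01 for Birc5 and 0.01 for Rb1. With 1 mouse left out they ran from -0.98 to 0.36 for Mki67, -0.64 to 0.39 for Top2a, -0.08 to 0.49 for Ccne1, -0.09 to 0.33 for Ccne2, -0.17 to 0.62 for Ccna2, -0.48 to 0.24 for Cdc45, -0.26 to 0.09 for Mcm5, -0.10 to 0.04 for Pcna, -0.15 to 0.19 for Rrm1, -0.27 to 0.22 for Rrm2, -0.05 to 0.24 for Aurka, -0.60 to 0.21 for Plk1, -0.65 to 0.07 for Nusap1 and -0.78 to 0.19 for Cdkn1a. No paired analysis was possible because the replicate numbers of the groups are not shared. Depth limits the precision of the 19 genes of the 40 that had under 10 counts in at least 1 mouse.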

Other observations

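Ckap2, a spindle protein among the other cell cycle genes, had 24, 60, 13 and 5 counts in WT livers and 2, 2, 4 and 7 in MøFoxO1-KO livers. Its counts were too low for the test, and it was chosen after its values were seen. WT replicate 25 lay within the MøFoxO1-KO range, and WT replicate 23 was the highest mouse. Because the gene was chosen by its values, no P is given for it.

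Summed markers of the other cell types overlapped between the groups. MøFoxO1-KO replicate 29 was the highest mouse in neutrophil markers (149 normalized counts, beside 147 in WT replicate 24 and 39.3 to 89.5 in the other mice of its group), in T and NK cell markers (214 beside 99.6 to 118), in B and plasma cell markers (2734 beside 687 to 1340) and in stellate and myofibroblast markers (7829 beside 4821 to 6012). WT replicate 23 was the lowest mouse in B and plasma cell markers (395) and in stellate and myofibroblast markers (4159). Lipid-associated macrophage markers summed to between 2187 and 3894 in WT livers and between 2134 and 3303 in MøFoxO1-KO livers, sums that Spp1, Lpl and Cd9 dominate. Of these 6 markers Gpnmb was called (edgeR, log2 fold change -4.13, Benjamini-Hochberg adjusted P = 0.0382), and Gpnmb, Trem2 and Mmp12 were lower at an unadjusted P under 0.05 (edgeR), Gpnmb and Trem2 with groups that did not overlap. That was 3 of 6, beside 8.06% of all tested genes, and 2 of the 6 had positive log2 fold changes, up to 0.41. Of 6 hepatocyte markers, 2 were higher and 0 lower at an unadjusted P under 0.05 (edgeR), beside 8.65% and 8.06% of all tested genes. Hepatocyte markers lay between 1044734 and 1478010 in WT livers and between 1228991 and 1827847 in the other group, cholangiocyte markers between 1312 and 1727 and between 982 and 1496, and erythroid markers between 6287 and 23156 and between 8033 and 16618. The part of these cells in the levels of cell cycle genes was not tested.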
